A study of Mus musculus with 11 samples.

Results

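Regions of open chromatin were examined at 9 genes that hypoxia-inducible factor (HIF) is known to induce and whose products act outside glycolysis: Bnip3, Bnip3l, Ddit4, Ndrg1, Ankrd37, Car9, Car12, Mxi1 and Bhlhe40. Their accessible regions were taken as every region of the deposited ATAC-seq list that overlapped one of these genes or the 20 kb before its start or after its end, by the GENCODE vM21 annotation of the mouse genome mm10. This gave 68 of the 94963 regions in the list, or 0.0716%. ATAC-seq measures open chromatin through the sites at which the Tn5 transposase can insert sequencing adapters. The list came from 11 cultures of MPC2, a conditionally immortalised mouse mesenchymal stem cell line derived as 1 clone, so that all cultures shared 1 genetic background. Undifferentiated cells (MSCs) received vehicle (DMSO, 3 cultures) or 50 uM of FG-4592 for 48 hours (3 cultures). FG-4592 (Roxadustat) blocks the prolyl hydroxylases and thereby keeps HIF from being degraded. Osteocyte-like cells, differentiated for 3 weeks, received vehicle (2 cultures) or 50 uM FG-4592 for 48 hours (3 cultures). The list holds 1 level per region, read here as the average over all cultures, and no value per culture. Replicate error and depth per culture were therefore unknown, no comparison between MSCs and osteocytes or between vehicle and FG-4592 was made, and all values below describe the pooled list.

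In cells with enough oxygen, prolyl hydroxylases mark the HIF alpha subunits for destruction. When oxygen is low or the hydroxylases are inhibited, the stable alpha subunit pairs with its beta partner and binds the hypoxia response element (HRE), whose core reads ACGTG or GCGTG on either strand. Besides switching metabolism to glycolysis, HIF is known to remove mitochondria through the mitophagy receptors Bnip3 and Bnip3l, to restrain growth through Ddit4 and Ndrg1, to handle acid through the membrane carbonic anhydrases Car9 and Car12, and to act through the transcriptional repressors Mxi1 and Bhlhe40. Ankrd37 encodes a small ankyrin repeat protein that is widely used as a marker of HIF activity. Several of these genes were assigned to HIF because such elements had been mapped in them, so the presence of a core is not independent of how the genes came to be called HIF targets.

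The stretches below are shown so that the sequence behind the core counts at the start of each gene can be read. Outside exons, the group of neighbouring cores with the most ACGTG was taken from the start regions of each gene, with the group nearest to the start added for Bnip3, Bnip3l and Ddit4. At Mxi1 and at Ankrd37 site d such a group was a single core. They were taken from the RefSeq copy of GRCm38.p6 (mm10) and run 5′ to 3′ on the strand of the gene. Capitals mark HRE cores, which read CACGT or CACGC where the core lies on the opposite strand. Positions count from the start of the first listed protein-coding transcript of each gene, called the first transcript start, with negative numbers upstream. The upstream and proximal stretches of Bnip3, the proximal and intronic stretches of Bnip3l, and the proximal and upstream stretches of Ddit4 come first, followed by an intronic stretch of Ndrg1. Ankrd37 sites a to c, the Car12 site and the Car9 site near its start lie in annotated exons and are cut to 30 bases or fewer, and the Car9 site near its start lies in no accessible region.
Bnip3 upstream (chr7:138909840-138909899, minus strand): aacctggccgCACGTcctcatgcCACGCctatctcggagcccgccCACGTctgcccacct
Bnip3 proximal (chr7:138909527-138909633, minus strand): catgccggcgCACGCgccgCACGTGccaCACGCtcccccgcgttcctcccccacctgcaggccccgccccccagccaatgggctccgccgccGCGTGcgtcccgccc
Bnip3l proximal (chr14:67008968-67009037, minus strand): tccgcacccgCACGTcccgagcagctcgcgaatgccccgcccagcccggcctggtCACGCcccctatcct
Bnip3l intronic (chr14:67008260-67008434, minus strand): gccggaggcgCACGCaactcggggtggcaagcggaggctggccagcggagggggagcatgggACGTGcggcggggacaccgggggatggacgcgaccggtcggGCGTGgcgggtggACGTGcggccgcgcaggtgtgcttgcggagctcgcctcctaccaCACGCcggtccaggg
Ddit4 proximal (chr10:59951871-59951967, minus strand): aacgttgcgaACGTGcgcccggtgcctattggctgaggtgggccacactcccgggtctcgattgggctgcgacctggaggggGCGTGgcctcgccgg
Ddit4 upstream (chr10:59952360-59952463, minus strand): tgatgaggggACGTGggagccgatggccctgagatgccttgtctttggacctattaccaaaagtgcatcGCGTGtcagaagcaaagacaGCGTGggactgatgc
Ndrg1 intronic (chr15:66968854-66968938, minus strand): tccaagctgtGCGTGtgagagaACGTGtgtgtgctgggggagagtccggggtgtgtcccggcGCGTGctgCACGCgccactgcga
Ankrd37 site a (chr8:46000075-46000103, minus strand): ccacccagcagtACGTGcctagctcggct
Ankrd37 site b (chr8:46000158-46000186, minus strand): tttccgggctACGTGCGTGctctcagtca
Ankrd37 site c (chr8:46000266-46000294, minus strand): cggcggcggaggACGTGgggcaggaggaa
Ankrd37 site d (chr8:46000467-46000491, minus strand): ccctcaggggACGTGtgacaatggg
Car9 site near the start (chr4:43506996-43507024, plus strand): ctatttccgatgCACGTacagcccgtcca
Car9 intronic (chr4:43508837-43508892, plus strand): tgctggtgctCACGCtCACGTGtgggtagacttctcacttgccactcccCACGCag
Car12 site (chr9:66713728-66713757, plus strand): tacacaaccaACGTGCACGTcttggtccca
Mxi1 intronic (chr19:53329337-53329361, plus strand): tcggcacccgACGTGcactggcggg
Bhlhe40 proximal (chr6:108660362-108660482, plus strand): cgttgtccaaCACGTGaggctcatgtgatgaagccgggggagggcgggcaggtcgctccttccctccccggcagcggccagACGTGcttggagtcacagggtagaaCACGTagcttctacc

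All 9 genes had an accessible region within 1000 bp of a transcript start, against 64.1% of 21938 protein-coding genes. With starts of protein-coding transcripts alone the count was 8 of 9, against 62.4%, and Car9 was the exception. In 8 of the 9 genes the highest of all regions in the window lay at a start of the gene, and Car9 was again the exception. The share was 47.4% of the 16524 protein-coding genes with at least 2 regions. These include genes without any start region, which cannot qualify. The number of regions per gene ran from 3 at Car12 to 12 at Ddit4, Ndrg1 and Mxi1. Together the windows covered 585 kb and held 1.16 regions per 10 kb. By gene the median of the 9 was 1.14, the value of Mxi1, where the median protein-coding gene had 0.624. Ddit4 was the densest, with 2.85 regions per 10 kb over 42.2 kb, and Car12 the sparsest, with 0.322 over 93.2 kb. Of the 68 regions, 18 lay at starts of the 9 genes, 6 lay at starts of other genes, and 44 lay more than 1000 bp from every annotated transcript start. Other annotated genes that start in these windows are Gm18258, Gm45507 and Gm9358 at Bnip3, Gm24258 and Gm9570 at Bnip3l, Gm17035 and Gm2895 at Ndrg1, Lrp2bp at Ankrd37, Gm12454, Ccdc107, Rmrp, Arhgef39 and Tpm2 at Car9, Gm10197, Smndc1, AC133451.1 and AC133451.2 at Mxi1, and Gm17055 and 0610040F04Rik at Bhlhe40.

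**Figure D1:**
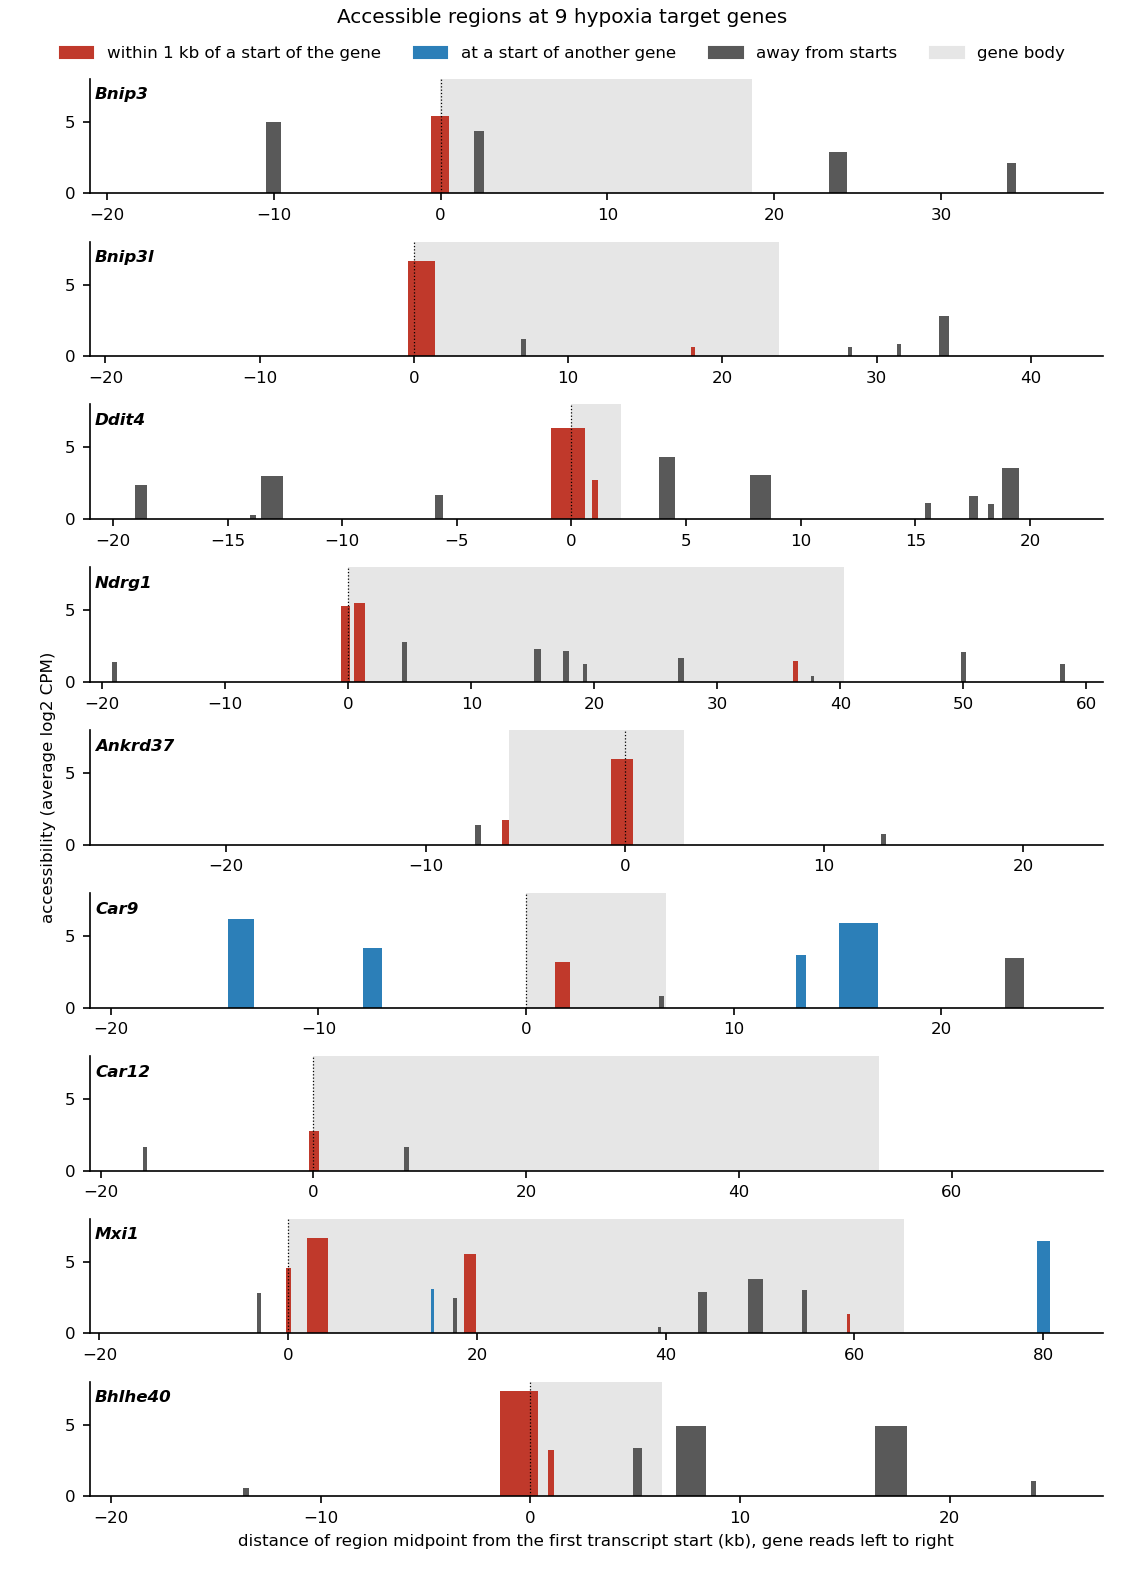
Accessible regions at each of the 9 genes, placed by the distance of their midpoint from the first transcript start (kb, each gene reading left to right), with bar height the average log2 CPM of the pooled list (bars start at 0, that is 1 CPM) and bar width the region's width, drawn at no less than 0.25 kb. Red bars lie within 1000 bp of a start of the gene, blue bars at a start of another gene and dark bars away from starts. A red bar is the highest in every panel except that of Car9.

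The level of a region is its average log2 CPM, that is, its share of the cuts in all regions on a log2 scale. Across the 68 regions it ran from 0.26 to 7.33 with a median of 2.79, against a median of 2.12 over the whole list. Wide regions collect more cuts, and level followed log2 width closely (Pearson's r = 0.88 over 68 regions, which share the same libraries). Levels were therefore compared per kb of width, as log2 CPM minus log2 of the width in kb. On that scale the median of the 68 regions was 3.27 and that of the whole list 3.25. The highest start region of each of the 9 genes had a median of 5.67 log2 CPM per kb, against 4.70 over the 12706 start regions of protein-coding genes, and 7 of the 9 were above that median. The order per kb, from the highest, was Bhlhe40, Bnip3l, Ankrd37, Ddit4, Ndrg1, Mxi1, Bnip3, Car9 and Car12. Bnip3l, Ankrd37 and Ddit4 lay within 0.1 of each other, and without replicate error no neighbours in this order can be called different.

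**Figure D2:**
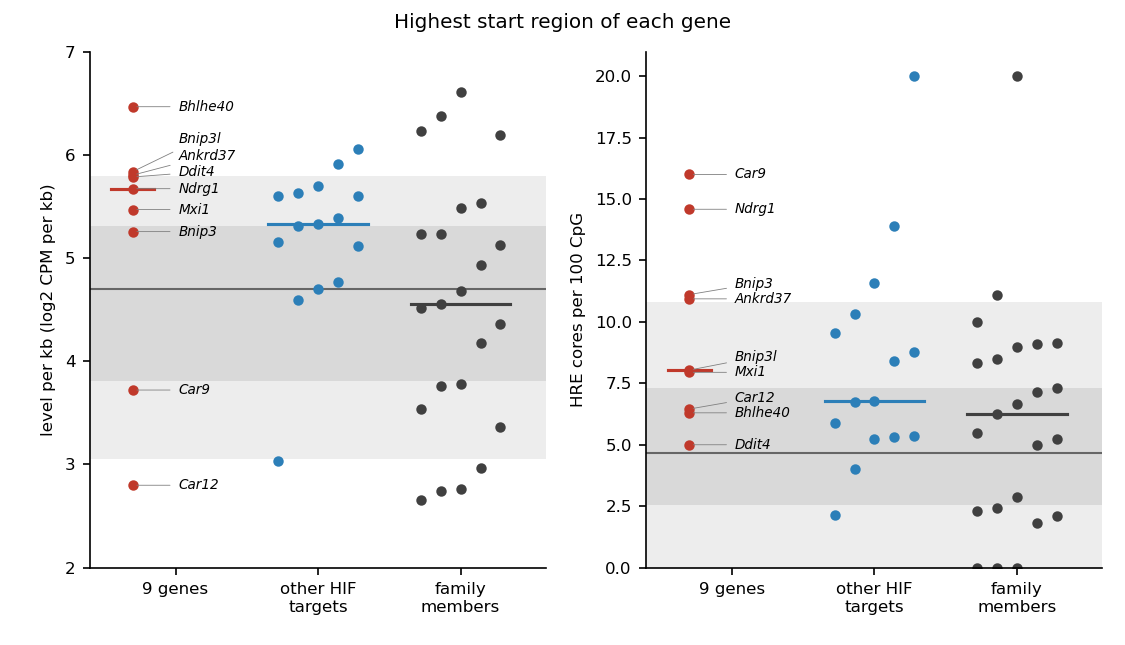
Highest start region of each gene by list, with the level per kb (log2 CPM per kb, left) and the HRE cores per 100 CpG (right). Points are genes, coloured bars are list medians, the grey line is the median over 12706 start regions of protein-coding genes, and the dark and light grey bands span their middle 50% and 80%. Of the 9 genes, 7 lie above the grey line on the left and 9 on the right, with Car9 and Car12 lowest on the left.

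Bnip3 and Bnip3l encode related outer mitochondrial membrane proteins that recruit the autophagy machinery to mitochondria. At Bnip3 the start region, chr7:138908981-138910103, covered the first exon with its 5′ UTR and coding sequence, and had a level of 5.42 log2 CPM, or 5.26 per kb, at the 72.7th percentile of start regions. It held 8 HRE cores, all upstream of the first transcript start and none in an exon. Among them 3 lay between -383 and -348, and 3 more lay between -117 and -99, where the middle core forms the palindrome CACGTG at -108 (the Bnip3 proximal stretch above). The remaining cores lay at -524 and -35.

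The Bnip3 start region held only 40.1% of the CPM summed over the gene's 5 regions. The region next in level, chr7:138919059-138919985, lay about 10 kb upstream and had a level of 4.98 log2 CPM, or 5.09 per kb. It was close to the start region per kb, held 6 HRE cores, and Bnip3 was the protein-coding gene nearest to it. A region in an intron, chr7:138906930-138907526, had 4.37 log2 CPM (5.11 per kb), 2 HRE cores and 1 AP-1 site (TGACTCA or TGAGTCA on either strand, the site of the Fos and Jun family). The other 2 regions lay past the gene's end at 2.11 and 2.89 log2 CPM.

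Bnip3l had a different layout. Its start region, chr14:67007536-67009293, had 6.65 log2 CPM, or 5.84 per kb (90.9th percentile), and held 88.8% of the CPM in the window together with a small region near an internal transcript start (chr14:66990680-66990902, 0.66 log2 CPM). It spanned the first exon and ran into the first intron, with 9 HRE cores, of which 3 lay upstream (-105, -150 and -310) 5 lay in the intron between 453 and 603, and 1 lay at 968. The remaining 4 regions ran from 0.68 to 2.84 log2 CPM. Of these the highest, chr14:66974165-66974842, lay past the gene's end and held 2 AP-1 sites. An intronic region, chr14:67001588-67001941, had 1.19 log2 CPM and no core, and chr14:66980447-66980767, at 0.68 log2 CPM, held a CACGTG. Accessibility at Bnip3l was thus concentrated at its start, while at Bnip3 it was spread over 3 regions of similar level per kb.

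Ddit4 encodes an inhibitor of mTORC1 signalling (REDD1), and Ndrg1 a cytoplasmic protein linked to growth arrest and differentiation. The Ddit4 start region, chr10:59951245-59952705, had 6.33 log2 CPM, or 5.79 per kb (89.8th percentile). All 5 of its HRE cores lay upstream, at -51, -123, -540, -560 and -619. A second region at the start, chr10:59950691-59950930, lay in coding sequence and had 2.72 log2 CPM with 2 cores. The gene itself is 2166 bp long, and the other 10 regions lay outside it on both sides, 4 upstream and 6 past the end, at 0.26 to 4.31 log2 CPM. The highest of them, chr10:59947338-59947999, lay past the end at 4.31 log2 CPM (4.91 per kb) with 1 AP-1 site and no HRE core. The next, chr10:59932290-59933070, had 3.54 log2 CPM and 1 HRE core. All 12 regions were nearer to the start of Ddit4 than to that of any other protein-coding gene.

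At Ndrg1 accessibility at the start was split between 2 neighbouring regions of about equal level. One, chr15:66969470-66970229, covered the first transcript start and the 5′ UTR at 5.30 log2 CPM, or 5.70 per kb. The other, chr15:66968297-66969198, lay in the first intron at 5.52 log2 CPM, or 5.67 per kb (86.9th percentile). Each held 7 HRE cores. The upstream cores, from -12 to -454, lay within an exon of Gm2895, a gene whose start is also within 1000 bp. The intronic cores lay between 501 and 1092, with 4 of them between 712 and 772 (the Ndrg1 stretch above). A further region near an internal transcript start, chr15:66933116-66933516, had 1.46 log2 CPM and no core. The 9 regions elsewhere were below both regions at the first start, at 0.42 to 2.77 log2 CPM, with 1 HRE core and 2 AP-1 sites in all of them. The 2 highest of these, chr15:66964871-66965268 at 2.77 log2 CPM and chr15:66953950-66954528 at 2.33, were intronic.

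Ankrd37 had the most concentrated accessibility of the 9 genes. Its start region, chr8:45999455-46000587, had 5.98 log2 CPM, or 5.80 per kb (90.2nd percentile), and held 93.9% of the CPM in the window together with a low region at the start of a noncoding transcript (chr8:46005658-46006015, 1.76 log2 CPM). A transcript of Lrp2bp also starts within 1000 bp of the main region, so its level cannot be divided between the genes. Of its 7 HRE cores, 6 had the ACGTG form. They lay at -614, -415, -309, -224, 11 and 324, and the core at -309 runs over 9 bases as ACGTGCGTG. The 2 other regions, chr8:46007080-46007384 and chr8:45986806-45987005, had 1.39 and 0.76 log2 CPM, no HRE core and 1 AP-1 site each.

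Car9 and Car12 encode carbonic anhydrases that face the outside of the cell and help to clear the acid of hypoxic cells. Both were at the low end. At Car9 no region covered the protein-coding start. The HRE core nearest to it, at 42 in the 5′ UTR (the Car9 site near the start, above), lay outside every region, and no other core lay within 250 bp. The region assigned to the start, chr4:43508375-43509072, began 1063 bp from the nearest coding start, overlapped coding exons and starts of noncoding transcripts, and is also within 1000 bp of the start of Gm12454. It had 3.20 log2 CPM, or 3.72 per kb (23.5th percentile), with 4 HRE cores between 1514 and 1920, all intronic, of which the core at 1887 forms CACGTG.

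The Car9 start region held only 4.96% of the CPM in the window, which also holds starts of other genes. Regions at the starts of Ccdc107 and Rmrp (chr4:43492629-43493878, 6.21 log2 CPM), Tpm2 (chr4:43522026-43523924, 5.87) and Arhgef39 (chr4:43499138-43500042, 4.15) were all higher. A further region near a Tpm2 start (chr4:43519978-43520452) had 3.69 log2 CPM. A region past the end, chr4:43530034-43530940, had 3.47 log2 CPM and held a CACGTG, with Tpm2 the nearest protein-coding gene. A low region in a UTR, chr4:43513382-43513601, had 0.82 log2 CPM. Only 2 of the 7 regions were nearest to Car9.

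Car12 had 3 regions in its window. The start region, chr9:66713227-66714220, covered the first exon at 2.79 log2 CPM, or 2.80 per kb, at the 4.15th percentile of start regions. Its 2 HRE cores touch each other in the 5′ UTR, at 52 and 57, as ACGTGCACGT. The other regions, chr9:66722205-66722703 in an intron (1.67 log2 CPM) and chr9:66697707-66698079 upstream (1.65 log2 CPM), were below the median level of the list. The intronic one held 2 HRE cores, a CACGTG and an AP-1 site. Unlike Car9, Car12 had an accessible coding start.

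Mxi1 encodes a Max partner that opposes Myc, and Bhlhe40 a basic helix-loop-helix repressor. Both proteins are known to read the E-box CACGTG, which contains an HRE core. Mxi1 was accessible at 3 separate promoters. The first, chr19:53310271-53310777, had 4.55 log2 CPM (5.53 per kb) with 1 HRE core at 34. The next, chr19:53312507-53314747, was the widest of the 68 regions at 2241 bp and had 6.63 log2 CPM, or 5.47 per kb (80.8th percentile), with 12 cores between 2571 and 4020. The third, chr19:53329138-53330399, had 5.51 log2 CPM (5.18 per kb) and 15 cores between 18829 and 19634, of which 2 had the ACGTG form. Another start region, chr19:53369737-53370047, lay at a noncoding transcript with 1.35 log2 CPM and 1 core. The start regions together held 54.9% of the CPM in the window. The start of Smndc1 past the end (chr19:53389848-53391232, 6.47 log2 CPM) took most of the rest. An intronic region, chr19:53359240-53360785, had 3.81 log2 CPM and 4 HRE cores.

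Bhlhe40 had the highest start region of the 9 genes on either scale. The region chr6:108659183-108661000 had 7.33 log2 CPM, or 6.47 per kb, at the 98.5th percentile of start regions. Of its 8 HRE cores 5 had the ACGTG form, and 2 of those form CACGTG, at -1186 and -257. It also held 1 AP-1 site. A transcript of 0610040F04Rik starts within 1000 bp as well. A second region in coding sequence, chr6:108661490-108661774, had 3.21 log2 CPM and 1 core. Past the gene's end lay 2 wide regions of similar level, chr6:108667567-108669024 at 4.91 log2 CPM (4 HRE cores and a CACGTG) and chr6:108677059-108678580 at 4.87 (3 HRE cores and 3 AP-1 sites). All 7 regions were nearest to Bhlhe40.

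**Figure D3:**
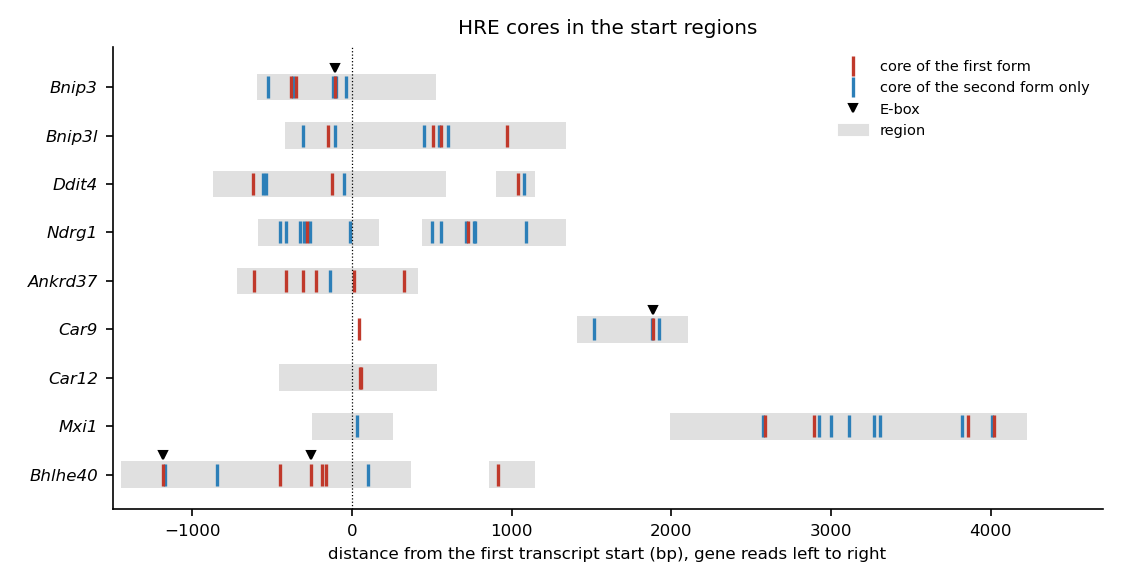
Position of HRE cores in the start regions of the 9 genes, in bp from the first transcript start, each gene reading left to right. Red ticks are cores of the ACGTG form, blue ticks cores of the GCGTG form alone, triangles mark CACGTG, and grey bars are the regions. The core of Car9 at 42 lies outside any region. Regions past 4700 bp, among them the third Mxi1 promoter with its 15 cores, are outside the plot.

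All 9 highest start regions held an HRE core, against 87.2% of the 12706 start regions, so that holding a core did not set these genes apart. Because the core contains a CpG, its number was also set against the number of CpG dinucleotides. The 9 regions held 62 cores on 730 CpG, or 8.49 per 100 CpG (Wilson 95% interval 6.68 to 10.7, for counting error only), against 4.93 over all start regions. Each of the 9 was above the median of 4.65, from 5.00 at Ddit4 to 16.0 at Car9, with Ndrg1 at 14.6, Bnip3 at 11.1 and Ankrd37 at 10.9. This holds for the highest start region of each gene. At Mxi1 the region covering the first transcript start had 1 core on 45 CpG, or 2.22 per 100 CpG, and no ACGTG. At Ndrg1 the region covering the first transcript start had 11.9. The Car9 ratio rests on 4 cores and 25 CpG. Within 250 bp of the start of the gene record, whether accessible or not, the 9 genes held 17 cores on 283 CpG, or 6.01 per 100 CpG (3.78 to 9.41), and that interval includes the 4.78 of the 14058 protein-coding genes with a start region.

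**Figure D4:**
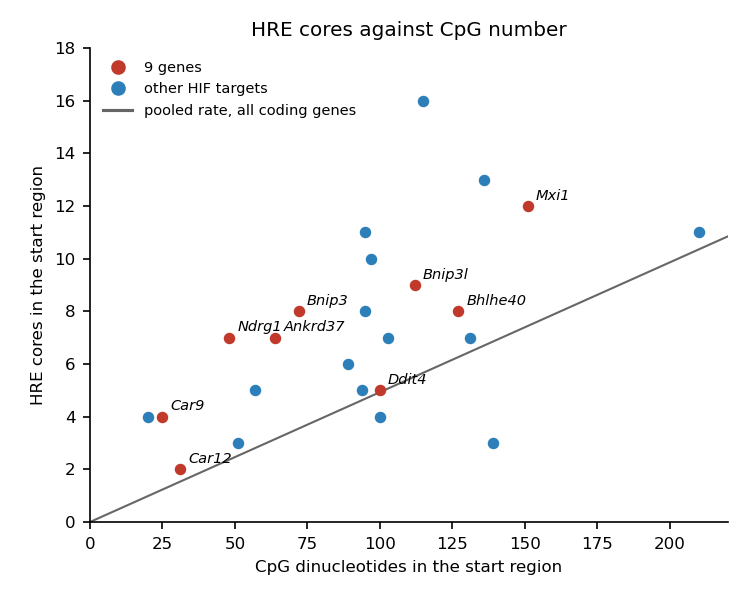
HRE cores against CpG dinucleotides in the highest start region of the 9 genes (red) and of the other HIF targets (blue), with the pooled rate over all start regions of protein-coding genes as a grey line (4.93 cores per 100 CpG). The 9 red points lie above the line, Ddit4 closest to it with 5 cores on 100 CpG.

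The 2 forms of the core were also counted apart, and their differences from all start regions were not compared with each other. ACGTG was present in 9 of the 9 highest start regions, against 57.8% of all start regions. It occurred 28 times, or 3.84 per 100 CpG (2.67 to 5.49), against 1.44 over all start regions. Cores of the GCGTG form alone occurred 34 times, or 4.66 per 100 CpG (3.35 to 6.44), against 3.48, and that interval includes the value for all start regions. Ankrd37 had the highest rate of the ACGTG form, at 9.38 per 100 CpG, followed by Car12 at 6.45 and Bnip3 at 4.17, and Ddit4 the lowest at 2.00.

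Over all 68 regions, 39 held an HRE core, or 57.4% (45.5 to 68.4), against 46.2% of the whole list. That interval includes the value of the list. With the ACGTG form alone 29 regions held a core, or 42.6% (31.6 to 54.5), against 27.1%. With ACGTGC or GCGTGC 23 did, or 33.8% (23.7 to 45.7), against 18.6%. Neither interval includes the value of the list, but 24 of the 68 regions lay within 1000 bp of a start, against 21537 of 94963. Away from starts both intervals, 16.3 to 41.8 and 11.2 to 34.5, include the list's 21.6% and 11.8%. Within 1000 bp of a start ACGTGC or GCGTGC reached 58.3% (38.8 to 75.5), and the interval includes the list's 41.6%. Only ACGTG there, at 70.8% (50.8 to 85.1), had an interval above the list's 45.7%. Among the 44 regions away from every start, 19 held a core, or 43.2% (29.7 to 57.8), against 38.6%. Among the 24 regions within 1000 bp of any start, those of other genes included, 20 held a core, or 83.3% (64.1 to 93.3), against 72.3% of such regions in the list, which lies within the interval. AP-1 sites occurred in 16 of the 44 regions away from starts, or 36.4% (23.8 to 51.1), against 23.7% of such regions in the list, and in 1 of the 9 highest start regions, that of Bhlhe40, against 14.3% of all start regions. Bhlhe40 had AP-1 sites in 4 of its 7 regions, 7 sites in all. The lower bound of the interval for the 44 regions is close to the value for the list, so a difference was not clear at this number of regions.

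CACGTG was found in 9 of the 68 regions, or 13.2% (7.1 to 23.3), with 11 sites in all. That interval includes the 9.16% of the list. CACGTG was present in 3 of the 9 highest start regions (Bnip3, Car9 and Bhlhe40), against 22.7% of all start regions. Mxi1 had 3 sites, all in intronic regions (chr19:53349768-53349988 at 0.46 log2 CPM and chr19:53353916-53354898 at 2.86) and none at its promoters. These Mxi1 sites and the one past the end of Bhlhe40 are shown because the products of both genes are known to bind this palindrome, marked in capitals with 12 bases to either side on the strand of the gene.
Mxi1 E-box a (chr19:53349920-53349949, plus strand): ggctgtgttgggCACGTGagcgggtgtcga
Mxi1 E-box b (chr19:53354520-53354549, plus strand): ggcaccagcactCACGTGcacatattatca
Mxi1 E-box c (chr19:53354710-53354739, plus strand): attgtgagctgcCACGTGggaactggagac
Bhlhe40 E-box past the end (chr6:108668133-108668162, plus strand): tctagaatcagcCACGTGaagccccccccc

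For comparison, 16 other HIF targets were examined, among them glycolytic enzymes, Vegfa and the HIF prolyl hydroxylases. A start region was found for 15 of the 16, Adm being without one. Their median level was 5.33 log2 CPM per kb, and 13 of 15 were above the median of all start regions. They held 7.38 HRE cores per 100 CpG (6.17 to 8.79) and 3.07 of the ACGTG form (2.31 to 4.06), and both intervals overlap those of the 9 genes. Slc2a1, the glucose transporter, had 5.63 log2 CPM per kb, Pgk1 had 5.60, Pdk1 had 5.31 and Vegfa had 5.15. Egln1 (Phd2) had 4.70 log2 CPM per kb and 2.16 cores per 100 CpG, and Egln3 (Phd3) had 3.04 and 5.88. Egln3 thus stood with Car9 and Car12 at the low end per kb.

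Of 27 family members of the 9 genes, some of which, such as Bhlhe41, are known HIF targets themselves, 23 had a start region, with a median of 4.55 log2 CPM per kb, and 10 of 23 were above the median of all start regions. They held 5.78 HRE cores per 100 CpG (4.67 to 7.14) and 1.74 of the ACGTG form (1.17 to 2.57), and 11 of the 23 regions had the ACGTG form. The interval for all cores overlaps that of the 9 genes, and the interval for the ACGTG form lies just below it (upper bound 2.57, against a lower bound of 2.67). Family members differed in level from their counterparts in both directions. Fundc1, another mitophagy receptor, had 4.68 log2 CPM per kb, below Bnip3 and Bnip3l. Ddit4l had 2.74, against 5.79 at Ddit4. Ndrg2, Ndrg3 and Ndrg4 had 3.36, 4.93 and 5.12, against 5.67 at Ndrg1.

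Of 14 other carbonic anhydrases 10 had a start region, and 7 of these 10 were above Car9 and 9 above Car12 in level per kb. The cytosolic Car2, Car3 and Car13 had 4.18, 3.78 and 5.24 log2 CPM per kb, while Car8, Car14 and Car6 had 3.53, 2.96 and 2.66 and lay below Car9. Car13 held no HRE core. The Max partners Mxd1 and Mxd4 had 6.60 and 6.23 log2 CPM per kb, above Mxi1 at 5.47, and Mxd3 had 5.23, below it. Mnt and Max itself had 6.38 and 6.19. Mxd1, Mxd3, Mxd4 and Mnt held 2.08, 1.82, 5.22 and 5.00 cores per 100 CpG, below the 7.95 of the highest Mxi1 start region, and Max held 8.49. The region at the first Mxi1 start held 2.22, above Mxd1 and Mxd3 and below Mxd4 and Mnt. Bhlhe41, the paralog of Bhlhe40, had 5.54 log2 CPM per kb and 9.16 cores per 100 CpG against 6.30.

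As a check of the labels, start regions of marker genes were looked up. All 6 mesenchymal and osteoblast markers (Prrx1, Twist1, Runx2, Sp7, Col1a1 and Alpl) had one, at 3.61 to 5.22 log2 CPM per kb, with 2 of the 6 above the median of all start regions. With 64.1% of all protein-coding genes having a start region, these counts are a weak check. Of 5 osteocyte markers Dmp1 had a start region (3.93), while Phex, Sost, Mepe and Pdpn had none within 1000 bp. Of 3 endothelial markers 2 had a start region (Pecam1 and Kdr), at 2.41 to 3.05 log2 CPM per kb, and of 3 epithelial markers 0 had one. The part of any other cell type in the levels of the 9 genes was not tested.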

How the data were processed

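ATAC-seq libraries of 11 MPC2 cultures were reported as 1 list of regions. The authors trimmed reads, aligned them to mm10 with Bowtie2, removed duplicates with Picard 2.17.8, called peaks with MACS2 2.2.7.1, merged them over samples, removed blacklisted regions, counted cuts per region, dropped regions with few cuts and normalised by TMM in edgeR 3.24.3, with versions from the submitters' processing notes. Whether cuts were shifted for the Tn5 offset is not given in the sources used here. The deposited value per region was read as average log2 CPM from the values themselves, since 460 regions are below 0 and 2 raised to the value sums to 1012761 over the list, near the total of CPM values. No column belongs to a single sample.

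From there, regions were joined to GENCODE vM21 with Python 3.11.15, pandas 2.3.3 and pysam 0.24.0, and motifs were counted on both strands of GRCm38.p6, with overlapping matches joined into 1 site. A start region lies within 1000 bp of any transcript start of the gene. Comparisons between genes and with all start regions use the highest of each gene. Exons were taken from GENCODE and RefSeq. The scripts were checked on simulated data. No test between groups was possible and none was run. Intervals are Wilson 95% intervals for counting error only. Named were all 9 genes, their start regions, their 2 highest regions elsewhere and every region with CACGTG, with lists of other HIF targets, family members and markers, of which 1 marker list is not reported here. Mxd3, Mnt, Max, Car6, Car8 and Car14 were named after their values had been seen. Members and lists were chosen with earlier results of these data known. The rule for the printed stretches, cores chained over gaps of up to 90 bp with 10 bases to either side, was set after the cores had been seen. Of the 9 genes, 6 had entries in the RefSeq promoter table, which was not used for the printed sequences.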

Additional observations from a re-analysis of the deposited data

How the results depend on the processing

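No paired analysis was possible because levels of single cultures are not part of the list. The number of regions, 68, moved to 116 with 50 kb to either side, to 35 with the gene body alone and to 34 with regions of at least 500 bp. The median level of the start regions was 5.53 log2 CPM per kb for the region nearest to the start of the gene record. That setting was not computed over all protein-coding genes. As deposited, without division by width, the median was 5.98, against 4.96 over all start regions. The share of regions with an HRE core was 42.6% for ACGTG alone (27.1% of the list), 33.8% for ACGTGC or GCGTGC (18.6%), 32.4% in the central 200 bp (24.2%) and 79.4% for regions of at least 500 bp (66.3%). Cores per 100 CpG of the start regions were 3.84 for ACGTG alone (1.44 over all start regions), 2.74 for ACGTGC or GCGTGC (1.45) and 6.01 within 250 bp of the start of the gene record (4.78 over protein-coding genes with a start region). With each of the 9 genes left out in turn the last ratio's main value of 8.49 ran from 8.06 to 9.05. With all 18 start regions it was 8.77, and with coding starts alone 8.23, both settings chosen after seeing the data. AP-1 sites were found in the central 200 bp of 15.9% of the regions away from starts (13.8% of the list). The count of genes with a start region was 8 or 9 under every alternative. Levels averaged over cultures cannot show whether a region was open in 1 group or in all.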
